A study of Mus musculus and Rattus norvegicus with 85 samples.

Results

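Haem, the iron-containing ring of haemoglobin and of cytochrome P450 enzymes, is opened by haem oxygenase into biliverdin, carbon monoxide and free iron. Biliverdin reductases turn the biliverdin into bilirubin. The released iron is stored in ferritin or leaves the cell through ferroportin, while the transferrin receptor brings iron in. Haem oxygenase 1 is a widely used sign of oxidative stress, and in the lung alveolar macrophages take up iron from inhaled particles and from red cells that leak into the airspace.

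The 8 genes described here were Hmox1 and Hmox2 (the inducible and the constitutive haem oxygenase), Blvra and Blvrb (biliverdin reductases A and B), Fth1 and Ftl1 (the heavy and light ferritin chains), Slc40a1 (ferroportin) and Tfrc (the transferrin receptor). They were chosen by symbol: every probe set that the array annotation gives to one of the 8 symbols was taken, 17 on the mouse array and 11 on the rat array. All 8 genes had a probe set in both species. A gene was tested under its own symbol where a probe set named that symbol alone and passed a filter on dim values, which left 7 of 13796 genes tested in the mouse and 6 of 11010 in the rat. Ftl1 in both species and Fth1 in the rat had no probe set of their own, because those probe sets also name ferritin pseudogenes or other loci. They are given as probe sets.

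Female mice labelled B6C3F1/Crl and female rats labelled F334/NCrl (F344/NCrl in the study's design text) inhaled chloroprene, the monomer of neoprene rubber, in whole-body chambers with air as the vehicle. They were 10 weeks old when exposure began and were exposed 6 hours a day, 5 days a week, for 5 or 15 exposure days. The mouse groups were 0, 0.3, 2, 13 and 90 ppm after 5 days and 0.3, 2, 13 and 90 ppm after 15 days. The rat groups were 5, 30, 90 and 200 ppm after each time. Each of the 17 groups held 5 animals with 1 array each, of RNA from the right lung, and this number limits the precision. No mice at 0 ppm after 15 days and no rats at 0 ppm were analysed here, so the lowest concentration served as the comparison there and any effect it has itself is not seen. The comparisons within a species and time share their comparison animals.

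Values are log2 signals as deposited. A change is the log2 difference of 2 group means, given with its standard error from a limma fit, and a gene rose or fell where its p-value, adjusted by Benjamini-Hochberg over all genes tested, was under 0.05. These p-values measure the spread between animals. In bulk lung RNA, fewer cells of a type and less RNA per cell cannot be told apart. The arrays of a species resembled one another (pairwise correlations of 0.971 to 0.998 for mice, 0.951 to 0.998 for rats), and their medians lay between 7.27 and 7.37 for mice and between 7.25 and 7.32 for rats. The lung marker Sftpc, the surfactant protein of alveolar type 2 cells, was near the top of the scale in both species, at 15.26 in mice at 90 ppm and 15.30 at 0 ppm after 5 days, and at 15.06 in rats at 200 ppm and 15.04 at 5 ppm. The title and the duration field of the labels gave different exposure days for 9 mice of the 15-day groups, which were placed by title. The RNA integrity number, a score of how whole the RNA was, was 8.3 to 9.7 among mice and 7.1 to 9.4 among rats.

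The stretch before the start site is shown for Blvra and Blvrb, because in the mouse only the second of these reductases rose. The capitals mark the one match to TGACNNNGC, the core of the antioxidant response element to which the oxidant-responsive factor NRF2 binds, searched on both strands. Both stretches are RefSeq sequence of the mouse build GRCm38.p6, on the plus strand, and hold the 250 bases before the transcript start listed there: chr2:127070407-127070656 for Blvra and chr7:27447728-27447977 for Blvrb.
Blvra: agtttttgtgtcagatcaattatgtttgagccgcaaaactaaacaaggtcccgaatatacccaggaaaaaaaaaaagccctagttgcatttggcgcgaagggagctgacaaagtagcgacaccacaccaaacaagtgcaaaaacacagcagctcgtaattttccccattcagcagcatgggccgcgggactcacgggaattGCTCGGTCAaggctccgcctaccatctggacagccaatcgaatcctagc
Blvrb: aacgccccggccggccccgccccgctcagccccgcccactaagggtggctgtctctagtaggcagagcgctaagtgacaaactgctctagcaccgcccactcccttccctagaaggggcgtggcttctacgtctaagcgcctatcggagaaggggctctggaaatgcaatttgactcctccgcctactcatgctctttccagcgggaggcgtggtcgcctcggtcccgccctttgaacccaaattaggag
In Blvra the match lies on the opposite strand and begins at position -49 from the start, and the stretch of Blvrb held no such letters. Of the 8 genes, 6 had an entry in the promoter table, with 11 windows of 300 bases (250 before and 50 after a start), and 1 of these 11 windows held the core. The core was in 4071 of all 32851 windows listed, which is 12.4%. Only these 300 bases were searched, so the search cannot tell whether a gene holds the core further from its start. A second search was made for the loop of the iron responsive element, CAGTGN with a C 6 bases before it, on the transcribed strand after the start. It found 0 matches in the 11 windows. Only the 50 bases after each start were covered, so this search cannot tell whether a transcript holds the element further on. Hmox1 and Slc40a1 were not searched.

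In mouse lung, the inducible haem oxygenase and biliverdin reductase B rose with chloroprene at both times, ferroportin rose at 90 ppm, and the light ferritin probe sets rose by small amounts. The constitutive haem oxygenase, biliverdin reductase A, heavy ferritin and the transferrin receptor did not pass the test in any mouse comparison. Of the 7 genes tested, 2 rose and 0 fell after 5 days at 90 against 0 ppm, Hmox1 and Blvrb, where 16.3% of all genes were called and 8.99% were called higher. After 15 days at 90 against 0.3 ppm 3 rose, Hmox1, Blvrb and Slc40a1, where 7.97% of all genes were called and 4.68% were called higher. The median change of the 7 was 0.15 and 0.22 in these comparisons, beside 0.01 and -0.01 over all genes. Both medians were the change of Tfrc itself, which did not pass (standard error 0.17), and Hmox2 and Blvra lay below 0 in both.

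**Figure D1:**
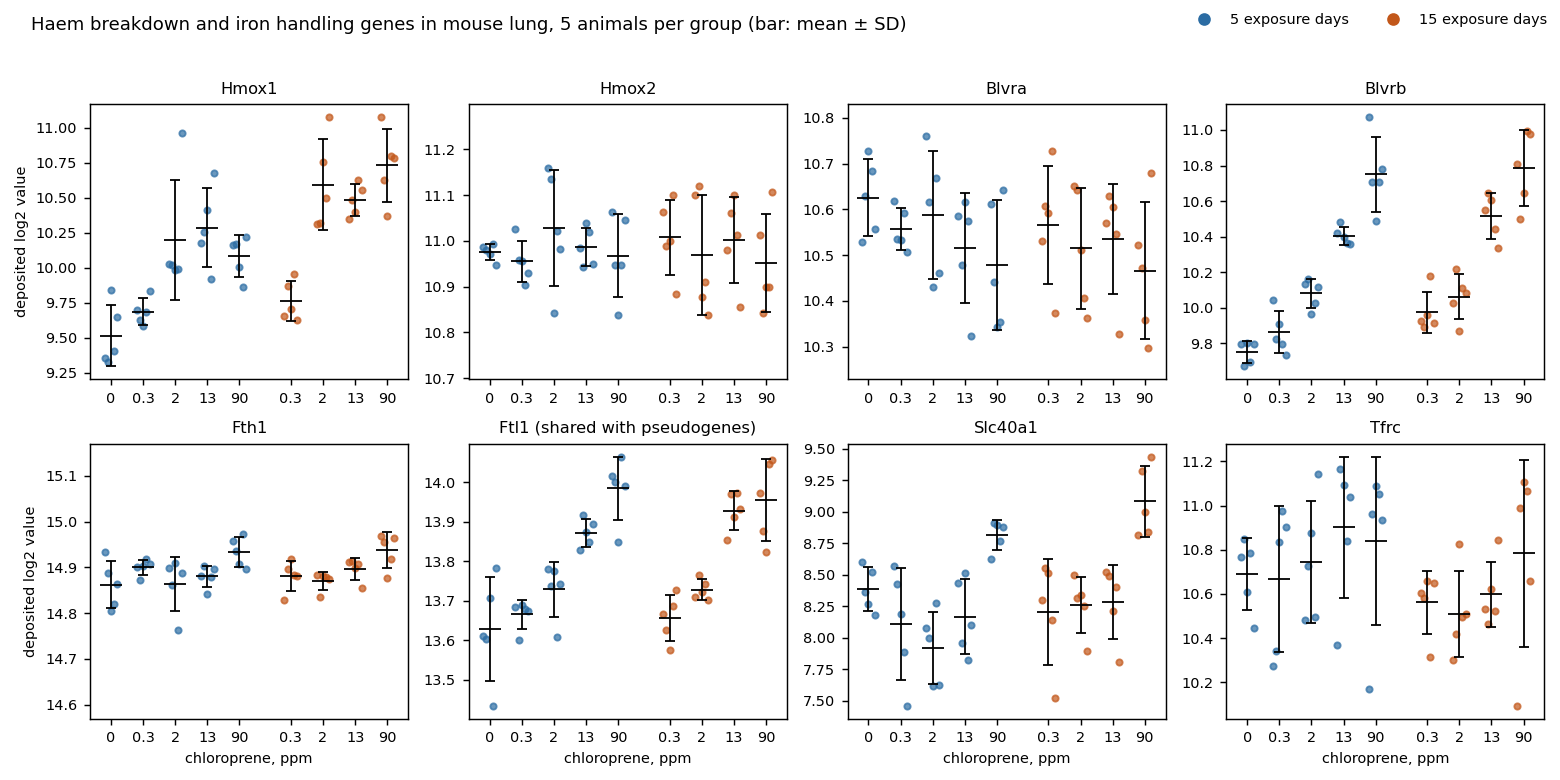
Deposited log2 values (vertical axis) of the 8 genes in each mouse, by chloroprene concentration in ppm (horizontal axis) and time (colours), with group means and SD (bars, n = 5). Hmox1 lies between 9.33 and 9.84 at 0 ppm and at or above 9.86 in every mouse at 2, 13 and 90 ppm, while Hmox2 stays between 10.84 and 11.16 throughout.

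Hmox1 rose from 2 ppm on at both times. After 5 days its log2 values were 9.33, 9.36, 9.41, 9.65 and 9.84 at 0 ppm, 9.59, 9.63, 9.69, 9.70 and 9.84 at 0.3 ppm, 9.98, 9.99, 10.02, 10.03 and 10.96 at 2 ppm, 9.92, 10.17, 10.25, 10.41 and 10.68 at 13 ppm, and 9.86, 10.01, 10.16, 10.17 and 10.22 at 90 ppm. After 15 days they were 9.62, 9.65, 9.71, 9.87 and 9.95 at 0.3 ppm, 10.31, 10.32, 10.50, 10.76 and 11.08 at 2 ppm, 10.35, 10.39, 10.48, 10.56 and 10.63 at 13 ppm, and 10.37, 10.63, 10.78, 10.80 and 11.08 at 90 ppm. The 0.3 ppm mice overlapped the 0 ppm mice, and every mouse at 2, 13 or 90 ppm lay above every 0 ppm mouse after 5 days and above every 0.3 ppm mouse after 15 days. Of all genes, 3.66%, 2.86% and 7.99% had all 5 mice above all comparison mice at 2, 13 and 90 ppm after 5 days, and 0.159%, 0.725% and 2.27% after 15 days.

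After 5 days Hmox1 rose 1.60-fold at 2 ppm (0.68 ± 0.15, adjusted p = 0.016 by limma), 1.71-fold at 13 ppm (0.77 ± 0.15, 0.0022) and 1.48-fold at 90 ppm (0.57 ± 0.15, 0.0063), each against 0 ppm. At 0.3 ppm its change was 0.17 ± 0.15. After 15 days it rose 1.78-fold at 2 ppm (0.83 ± 0.15, adjusted p = 0.0045), 1.65-fold at 13 ppm (0.72 ± 0.15, 0.0096) and 1.96-fold at 90 ppm (0.97 ± 0.15, 2.0e-05), each against 0.3 ppm. The level did not differ between neighbouring concentrations from 2 ppm on by more than the test could detect. The change from 2 to 13 ppm was 0.09 after 5 days and -0.11 after 15 days (± 0.15 each). The change from 13 to 90 ppm was -0.20 ± 0.15 (adjusted p = 0.50) after 5 days and 0.25 ± 0.15 (0.32) after 15 days. The change from 0.3 to 90 ppm was larger after 15 than after 5 days by 0.57 ± 0.21, which did not pass (adjusted p = 0.74).

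At 2 ppm after 5 days, limma called 2 of the 7 genes, Hmox1 and Blvrb, and 1.2% of all genes. Mouse 137 held the highest Hmox1 value of that group (10.96, the others reaching 10.03). The gap between 3′ and 5′ controls for Gapdh and beta-actin was the largest of the group on its array, 0.54 on the log2 scale, and its RNA integrity number was 8.6; the part of these in its value was not tested. Without it the Hmox1 change was 0.49 (adjusted p = 0.10). Against the 0.3 ppm mice Hmox1 did not pass at any concentration after 5 days; at 90 ppm its change was 0.40 ± 0.15 (adjusted p = 0.089), with all 5 mice at 90 ppm above all 5 at 0.3 ppm, as for 5.03% of all genes. Without the mice of conflicting duration labels the 15-day changes were 0.99 at 2 ppm (adjusted p = 0.16), 0.88 at 13 ppm (0.080) and 1.30 at 90 ppm (0.0013). That fit kept only mice 125 and 129 at 0.3 ppm and mice 177 and 180 at 90 ppm.

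Hmox2, the haem oxygenase that most cells express at a steady level, had group means from 10.95 to 11.03. Its change was -0.01 ± 0.06 at 90 against 0 ppm after 5 days and -0.06 ± 0.06 at 90 against 0.3 ppm after 15 days. The intervals of 2 standard errors each way ran from -0.13 to 0.12 and from -0.18 to 0.07, so a change as large as that of Hmox1 lay outside them.

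Blvrb, which reduces biliverdin and also flavins, was graded with concentration. After 5 days its log2 values were 9.67, 9.69, 9.79, 9.80 and 9.80 at 0 ppm, 9.74, 9.80, 9.83, 9.91 and 10.05 at 0.3 ppm, 9.97, 10.03, 10.12, 10.13 and 10.16 at 2 ppm, 10.36, 10.37, 10.40, 10.42 and 10.48 at 13 ppm, and 10.49, 10.71, 10.71, 10.78 and 11.07 at 90 ppm. After 15 days they were 9.89, 9.92, 9.93, 9.96 and 10.18 at 0.3 ppm, 9.87, 10.02, 10.08, 10.11 and 10.22 at 2 ppm, 10.34, 10.44, 10.55, 10.61 and 10.65 at 13 ppm, and 10.50, 10.64, 10.81, 10.98 and 10.99 at 90 ppm. After 5 days the groups at 2, 13 and 90 ppm lay one above the other with no overlap. The share of all genes separated between these neighbouring groups was not counted. Each of these groups lay above all 0 ppm mice, as for 3.66%, 2.86% and 7.99% of all genes. After 15 days 2 ppm overlapped 0.3 ppm and 90 ppm overlapped 13 ppm.

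Against 0 ppm after 5 days, Blvrb rose 1.26-fold at 2 ppm (0.33 ± 0.09, adjusted p = 0.043), 1.57-fold at 13 ppm (0.65 ± 0.09, 2.1e-06) and 2.00-fold at 90 ppm (1.00 ± 0.09, 1.5e-11). Against 0.3 ppm after 15 days it rose 1.46-fold at 13 ppm (0.54 ± 0.09, adjusted p = 0.00012) and 1.75-fold at 90 ppm (0.81 ± 0.09, 5.3e-09), and at 2 ppm its change was 0.09 ± 0.09. Unlike the steps of Hmox1, that of Blvrb from 13 to 90 ppm passed at both times, at 0.35 ± 0.09 (adjusted p = 0.012) after 5 days and 0.27 ± 0.09 (0.046) after 15 days; the difference between the genes' steps was not tested. The step from 2 to 13 ppm was 0.32 ± 0.09 (adjusted p = 0.49) after 5 days and 0.45 ± 0.09 (0.0099) after 15 days. The change from 0.3 to 90 ppm after 15 days minus that after 5 days was -0.08 ± 0.12 (adjusted p = 0.83). The rise at 90 ppm held in every alternative processing tried, from 0.89 to 1.07 after 5 days and from 0.76 to 0.98 after 15 days, whereas the 2 ppm call was lost in 9 of the 10 fits that left out a mouse (0.31 to 0.36).

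Blvra, the reductase for the form of biliverdin that haem oxygenase makes, had group means between 10.47 and 10.63. Its change at 90 ppm was -0.15 ± 0.08 after 5 days (adjusted p = 0.23) and -0.10 ± 0.08 after 15 days (0.56). Of the 5 mice at 90 ppm, 3 lay below all 0 ppm mice after 5 days. The intervals (-0.30 to 0.01 and -0.26 to 0.06) do not hold a rise of the size seen in Blvrb.

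**Figure D2:**
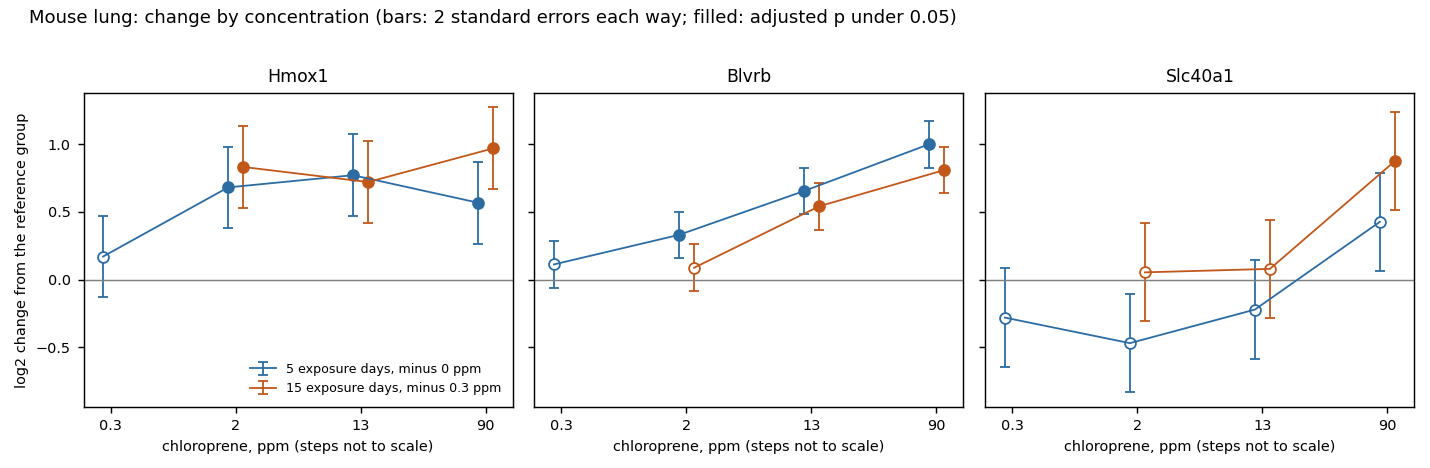
Log2 change of Hmox1, Blvrb and Slc40a1 in mouse lung (vertical axis) by chloroprene concentration in ppm (horizontal axis, steps not to scale), against 0 ppm after 5 days and against 0.3 ppm after 15 days, with 2 standard errors each way; filled points passed the test. Hmox1 is at 0.57 to 0.97 from 2 ppm on, Blvrb rises stepwise to 1.00 after 5 days, and Slc40a1 is above 0 by more than its bar at 90 ppm (0.43 and 0.88).

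Slc40a1, the only known exporter of iron from cells, was high in the 90 ppm mice alone. After 5 days its log2 values were 8.18, 8.27, 8.37, 8.52 and 8.60 at 0 ppm, 7.46, 7.89, 8.19, 8.43 and 8.57 at 0.3 ppm, 7.62, 7.63, 8.00, 8.08 and 8.27 at 2 ppm, 7.82, 7.96, 8.10, 8.43 and 8.51 at 13 ppm, and 8.63, 8.76, 8.88, 8.90 and 8.91 at 90 ppm. After 15 days they were 7.52, 8.15, 8.30, 8.51 and 8.56 at 0.3 ppm, 7.90, 8.25, 8.32, 8.34 and 8.50 at 2 ppm, 7.81, 8.21, 8.41, 8.49 and 8.52 at 13 ppm, and 8.82, 8.84, 8.99, 9.32 and 9.44 at 90 ppm. All 5 mice at 90 ppm lay above all mice of every other group of the same time, and the other groups overlapped. Of all genes, 7.99% had all 5 mice at 90 ppm above all 0 ppm mice after 5 days, and 5.03% above all 0.3 ppm mice. After 15 days 2.27% had all 5 above all 0.3 ppm mice. The share above every other group was not counted.

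After 15 days Slc40a1 rose 1.83-fold at 90 against 0.3 ppm (0.88 ± 0.18, adjusted p = 0.0012) and by 0.80 ± 0.18 against 13 ppm (0.0041). After 5 days its change at 90 against 0 ppm was 0.43 ± 0.18 and did not pass (adjusted p = 0.11), but it rose by 0.71 ± 0.18 against 0.3 ppm (0.0078) and by 0.65 ± 0.18 against 13 ppm (0.027). At 2 against 0 ppm it was at -0.47 ± 0.18 (adjusted p = 0.22), with 4 of 5 mice below all 0 ppm mice. A second probe set of the gene gave 0.66 ± 0.20 at 90 against 0.3 ppm after 5 days (adjusted p = 0.033) and 0.90 ± 0.20 after 15 days (0.0034). Without the mice of conflicting duration labels the 15-day change was 0.92 and lost its call (adjusted p = 0.060). That fit kept only mice 125 and 129 at 0.3 ppm and mice 177 and 180 at 90 ppm. The titles give mice 126 and 127 at 0.3 ppm and mice 178 and 181 at 90 ppm a letter A, without saying why. These mice had the highest Slc40a1 values of their groups (8.56, 8.51, 9.32 and 9.44). Their 3′ to 5′ control gaps, 0.03 to 0.05, were the lowest of their groups. The part of this in the rise was not tested, and the call held without all lettered mice.

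The light ferritin probe sets, each shared with the pseudogene Ftl1-ps2, moved together. The probe set with a mean signal of 13.79 had log2 values of 13.43, 13.60, 13.61, 13.71 and 13.78 at 0 ppm after 5 days, group ranges of 13.60 to 13.69 at 0.3 ppm, 13.61 to 13.78 at 2 ppm and 13.83 to 13.92 at 13 ppm, and values of 13.85, 13.99, 14.00, 14.02 and 14.06 at 90 ppm. After 15 days it was at 13.57 to 13.73 at 0.3 ppm, 13.70 to 13.77 at 2 ppm, 13.85 to 13.97 at 13 ppm and 13.82 to 14.06 at 90 ppm. Among genes tested under 1 symbol, 2.86% and 7.99% had all 5 mice above all comparison mice at 13 and 90 ppm after 5 days. After 15 days 0.725% and 2.27% did, and the shares of probe sets were not counted. On this probe set no mouse at 13 or 90 ppm overlapped the comparison mice at either time.

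This probe set rose 1.28-fold at 90 against 0 ppm after 5 days (0.36 ± 0.05, adjusted p = 6.5e-06 over all probe sets tested) and by 0.30 ± 0.05 at 90 against 0.3 ppm after 15 days (0.00023). It rose at 13 ppm as well, by 0.24 ± 0.05 after 5 days (adjusted p = 0.011) and 0.27 ± 0.05 after 15 days (0.0043), where 0.88% and 0.27% of all probe sets were called. The brightest light ferritin probe set, with a mean signal of 14.17, rose by 0.20 ± 0.04 and 0.18 ± 0.04 at 90 ppm after 5 and 15 days (adjusted p = 0.0010 and 0.0042), and the dimmest, with a mean of 10.45 and naming the Mir692 loci too, by 0.35 ± 0.09 and 0.28 ± 0.09 (0.0035 and 0.038). Thus all 3 probe sets passed at 90 ppm at both times, where 13.4% and 6.08% of all probe sets were called. Signal of the gene and of its pseudogene cannot be separated in these probe sets.

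Fth1, the ferritin chain that oxidizes iron on entry, had group means from 14.86 to 14.94, close to the highest mouse signal of 15.34. Its change at 90 ppm was 0.07 ± 0.04 after 5 days (adjusted p = 0.20) and 0.06 ± 0.04 after 15 days (0.45). Its second probe set was at 0.09 ± 0.04 and 0.06 ± 0.04.

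Tfrc, which takes up iron bound to transferrin and whose transcript is stabilized when iron is scarce, varied widely within groups. Its group means ran from 10.51 to 10.90, and the lowest mice of the 90 ppm groups, at 10.17 after 5 days and 10.09 after 15 days, were the lowest of all mice at each time. Its change at 90 ppm was 0.15 ± 0.17 (adjusted p = 0.64) and 0.22 ± 0.17 (0.55), with intervals from -0.20 to 0.49 and from -0.12 to 0.57. Its 3 other probe sets that passed the filter on dim values, an array control among them, did not pass the test at 90 ppm either.

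At the remaining concentrations the mouse counts were small. At 0.3 against 0 ppm after 5 days limma called 0 of the 7 genes, 0 of them with an unadjusted p under 0.05, and 0% of all genes, of which 514 had an unadjusted p under 0.05. At 13 ppm 2 rose at each time, Hmox1 and Blvrb, where 1.3% (5 days) and 0.326% (15 days) of all genes were called, and at 2 ppm after 15 days 1 rose, Hmox1, where 0.109% were. At 90 against 0.3 ppm after 5 days 2 rose, Blvrb and Slc40a1, where 9.86% were. Between 90 and 13 ppm 2 rose at each time, Blvrb and Slc40a1, where 4.78% and 7.84% of all genes were called. Between 13 and 2 ppm 0 of 7 passed after 5 days, 1 of them with an unadjusted p under 0.05, and 1, Blvrb, passed after 15 days, where 0.0217% and 0.109% of all genes were called. The difference between the times was called for 0 of 7 (1 with an unadjusted p under 0.05) and for 0.0435% of all genes. Between 15 and 5 days at 0.3 ppm 0 of 7 and 0% of all genes were called, with 0 of the 7 and 1898 of all genes at an unadjusted p under 0.05.

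Markers of red cell precursors and of macrophages were set beside these values, since both cell types handle much haem; the shares of all genes called were 16.3% and 7.97% as above. Of 4 erythroid genes tested in the mouse 0 passed at 90 ppm at either time, and their mean log2 level ran from 9.68 to 10.32 at 90 ppm and from 9.48 to 10.09 at 0 ppm after 5 days, and from 9.37 to 10.31 at 90 ppm and from 9.61 to 10.23 at 0.3 ppm after 15 days. Of 11 alveolar macrophage genes 0 rose and 1 fell after 5 days and 0 rose and 2 fell after 15 days. The lectin Siglecf fell by 0.74 and by 0.83 and the integrin Itgax fell by 0.39 after 15 days, while Chil3, the marker of highest signal, was at 13.56 at 90 ppm and 13.50 at 0 ppm after 5 days. Of 8 genes of monocytes and interstitial macrophages 0 rose and 2 fell at each time. Of 8 genes of B and T lymphocytes 5 fell after 5 days and 0 after 15 days, and of 9 genes of dividing cells 4 rose after 5 days and 0 after 15 days. Of 8 lung tissue genes 1 rose and 1 fell after 5 days and 0 passed after 15 days. The part of these cell types in the values of the 8 genes was not tested.

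In rat lung, both biliverdin reductases fell at 200 ppm after 5 days, and after 15 days none of the 6 genes passed. None of the 6 was called higher at any concentration against 5 ppm. After 5 days at 200 against 5 ppm 0 of 6 rose and 2 fell, Blvra and Blvrb, where 36.3% of all genes were called and 31.6% were called lower. At 90 against 5 ppm 0 rose and 2 fell, Hmox2 and Blvra, where 23.6% were called and 19.5% were called lower. The median change of all genes was itself -0.14 in both comparisons, so the falls of the 8 genes and of the listed genes in these comparisons are followed by their value relative to that median. At 200 ppm the members' share was close to that of all genes.

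**Figure D3:**
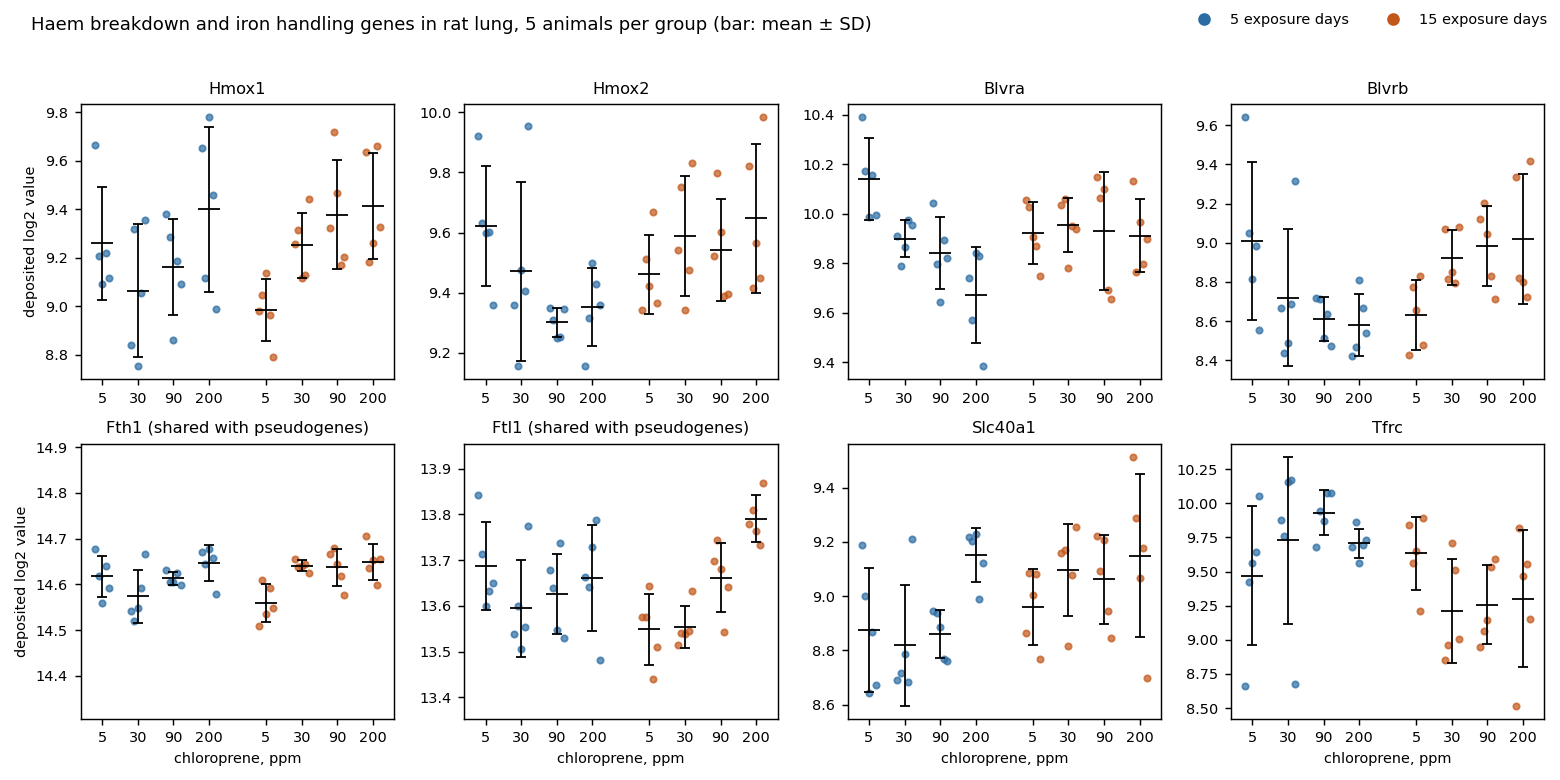
Deposited log2 values (vertical axis) of the 8 genes in each rat, by chloroprene concentration in ppm (horizontal axis) and time (colours), with group means and SD (bars, n = 5). Blvra declines over the 5-day groups to a range of 9.38 to 9.84 at 200 ppm, below the lowest rat at 5 ppm (9.99), and Hmox1 overlaps between all 5-day groups.

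Blvra had log2 values after 5 days of 9.99, 10.00, 10.16, 10.17 and 10.39 at 5 ppm, 9.79, 9.86, 9.91, 9.96 and 9.97 at 30 ppm, 9.64, 9.80, 9.82, 9.90 and 10.04 at 90 ppm, and 9.38, 9.57, 9.74, 9.83 and 9.84 at 200 ppm. All 5 rats at 200 ppm and all 5 at 30 ppm lay below every rat at 5 ppm, and 4 of 5 at 90 ppm did. Of all genes, 13.5% at 200 ppm and 0.699% at 30 ppm had all 5 rats below all at 5 ppm. Blvra fell by 0.47 ± 0.10 at 200 against 5 ppm (adjusted p = 0.0015; -0.33 relative to the median) and by 0.30 ± 0.10 at 90 ppm (0.035; -0.16 relative to the median). At 30 ppm its change was -0.24 ± 0.10 (adjusted p = 0.33). The call at 90 ppm was lost in 7 of the 10 fits that left out a rat, with adjusted p up to 0.18, and with RNA integrity as a covariate (0.21). The fall at 200 ppm passed in every alternative processing tried, from -0.51 to -0.40.

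Blvrb had log2 values after 5 days of 8.56, 8.81, 8.99, 9.05 and 9.64 at 5 ppm, 8.44, 8.49, 8.67, 8.69 and 9.32 at 30 ppm, 8.47, 8.51, 8.64, 8.71 and 8.72 at 90 ppm, and 8.42, 8.47, 8.54, 8.67 and 8.81 at 200 ppm. The groups overlapped, and 3 of 5 rats at 200 ppm lay below all rats at 5 ppm. It fell by 0.43 ± 0.16 at 200 ppm (adjusted p = 0.034; -0.29 relative to the median) and was at -0.40 ± 0.16 at 90 ppm (0.057) and -0.29 ± 0.16 at 30 ppm (0.39). The call at 200 ppm was lost in 6 of the 10 fits that left out a rat, 3 of each group, and after quantile normalization (-0.39, adjusted p = 0.0501). The smallest change was that without rat 217 of the 5 ppm group, which held the value of 9.64 (-0.27, adjusted p = 0.20).

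Rat 217 had the highest value of its group for Hmox1, Hmox2, Blvra, Blvrb, Slc40a1 and the Ftl1 probe set, and the lowest for Tfrc. Its array had the lowest median of that group (7.25), its RNA integrity number was 7.6 and its mean erythroid level 9.80, the highest of the group. Rat 239 of the 30 ppm group had values of 9.32 for Blvrb, 9.96 for Hmox2 and 9.21 for Slc40a1, the highest of that group, and of 8.68 for Tfrc, the lowest. Its 3′ to 5′ control difference was 0.18, the lowest of its group, its RNA integrity number was 9.2 and its mean erythroid level 9.76. The titles of rats 239, 269 and 282 name the array type where those of the other rats name the lung, and do not say why. At 200 ppm, rat 269 had the lowest Blvra (9.38) and Hmox1 (8.99) of the 5-day group. Rat 282 had the highest Hmox2 (9.98) and Blvrb (9.42) and the lowest Slc40a1 (8.70) of the 15-day group. The part of this difference in the values was not tested. Without rat 217 limma called 0 of the 6 genes at 90 ppm and, at 200 ppm, Blvra and Slc40a1 (0.36 ± 0.12, adjusted p = 0.046) but not Blvrb. Without rat 239 it called 0 at 30 ppm, as with it.

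Hmox2 had log2 values after 5 days of 9.36, 9.60, 9.60, 9.63 and 9.92 at 5 ppm and 9.25, 9.25, 9.31, 9.35 and 9.35 at 90 ppm, without overlap (as for 7.12% of all genes, all lower at 90 ppm), and of 9.15, 9.32, 9.36, 9.43 and 9.50 at 200 ppm. It fell by 0.32 ± 0.12 at 90 ppm (adjusted p = 0.048; -0.18 relative to the median) and was at -0.27 ± 0.12 at 200 ppm (0.070). The call at 90 ppm was lost in 9 of the 10 fits that left out a rat, with adjusted p up to 0.22.

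Hmox1 in the rat had log2 values after 5 days of 9.09, 9.12, 9.21, 9.22 and 9.67 at 5 ppm, 8.75, 8.84, 9.05, 9.32 and 9.36 at 30 ppm, 8.86, 9.09, 9.18, 9.29 and 9.38 at 90 ppm, and 8.99, 9.12, 9.46, 9.65 and 9.78 at 200 ppm. After 15 days they were 8.79, 8.96, 8.98, 9.05 and 9.14 at 5 ppm, 9.11, 9.13, 9.26, 9.31 and 9.44 at 30 ppm, 9.17, 9.20, 9.32, 9.47 and 9.72 at 90 ppm, and 9.18, 9.26, 9.33, 9.63 and 9.66 at 200 ppm. The groups overlapped after 5 days, and after 15 days all rats at 90 and at 200 ppm lay above every rat at 5 ppm.

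The Hmox1 change at 200 against 5 ppm was 0.14 ± 0.14 after 5 days (adjusted p = 0.42) and 0.43 ± 0.14 after 15 days (0.11). At 30 and 90 ppm after 15 days it was 0.27 ± 0.14 (adjusted p = 0.23) and 0.39 ± 0.14 (0.25). In the 15-day comparisons 1.93% of all genes at 90 ppm and 1.09% at 200 ppm had all 5 rats above all rats at 5 ppm. The interval of the 15-day change at 200 ppm ran from 0.15 to 0.71. It overlapped that of the mouse change of 0.97 at 90 against 0.3 ppm after 15 days, from 0.67 to 1.27. The doses and the comparison groups of the species differ and no test between them was made.

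After 15 days Blvrb in the rat was at 0.29 ± 0.16, 0.35 ± 0.16 and 0.39 ± 0.16 at 30, 90 and 200 against 5 ppm (adjusted p = 0.24, 0.34 and 0.19). Its log2 values were 8.43, 8.48, 8.66, 8.77 and 8.83 at 5 ppm, 8.80, 8.82, 8.85, 9.07 and 9.08 at 30 ppm, 8.71, 8.83, 9.05, 9.12 and 9.20 at 90 ppm, and 8.73, 8.80, 8.82, 9.34 and 9.42 at 200 ppm, and the groups overlapped. Blvra lay within 9.66 to 10.15 in all 15-day rats, with a change of -0.01 ± 0.10 at 200 ppm. The change from 5 to 200 ppm was higher after 15 than after 5 days for Blvra by 0.46 ± 0.14 (adjusted p = 0.040) and for Blvrb by 0.81 ± 0.22 (0.035), or 0.30 and 0.66 relative to the median of all genes. These were 2 of 6 genes called in this difference, where 11.4% of all genes were called. Leaving out 1 rat ended the call in 11 of 20 fits for Blvra and in 10 of 20 for Blvrb, with adjusted p up to 0.12 and 0.10, both without rat 217.

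Under their own symbols 0 of 6 genes passed at 30, 90 and 200 ppm after 15 days, with 0, 2 and 2 of them at an unadjusted p under 0.05, where 1.66%, 0.309% and 0.817% of all genes were called. At 30 ppm after 5 days 0 of 6 passed, 1 of them with an unadjusted p under 0.05, and 0% of all genes, of which 1477 had an unadjusted p under 0.05. The shared light ferritin probe set, which names 4 other loci beside Ftl1, had log2 values after 15 days of 13.73, 13.76, 13.78, 13.81 and 13.87 at 200 ppm, against 13.44, 13.51, 13.57, 13.58 and 13.64 at 5 ppm, without overlap. Among genes tested under 1 symbol, 1.09% had all 5 rats at 200 ppm above all at 5 ppm in this comparison. The light ferritin probe set rose by 0.24 ± 0.06 (adjusted p = 0.025 over all probe sets tested, of which 2.49% were called), while after 5 days its change was -0.03 ± 0.06. The difference between the times was 0.27 ± 0.08 (adjusted p = 0.048), called for 7.21% of all probe sets. The shared Fth1 probe set was at 0.09 ± 0.04 after 15 days (adjusted p = 0.18).

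Slc40a1 in the rat was at 0.28 ± 0.12 at 200 ppm after 5 days (adjusted p = 0.061) and at 0.19 ± 0.12 after 15 days (0.40). Its second probe set gave 0.15 ± 0.12 and -0.14 ± 0.12, and another failed the filter on dim values. Tfrc was at 0.24 ± 0.24 at 200 ppm and 0.46 ± 0.24 at 90 ppm after 5 days (adjusted p = 0.42 and 0.11), and at -0.33 ± 0.24 and -0.38 ± 0.24 after 15 days (0.46 and 0.44). Within the 5 ppm group after 5 days Tfrc ran from 8.66 to 10.06, a spread wider than any of these changes.

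RNA quality differed between the rat groups at both times, and erythroid markers moved with the 5-day groups. After 5 days the median RNA integrity number was 8.3 at 5 ppm, 9.25 at 30 ppm, 9.2 at 90 ppm and 7.65 at 200 ppm. The mean log2 level of 5 erythroid genes ran from 9.39 to 9.80 at 5 ppm, 9.22 to 9.76 at 30 ppm, 8.91 to 9.26 at 90 ppm and 8.77 to 9.33 at 200 ppm, so the rats at 90 and 200 ppm lay below all rats at 5 ppm. Of all genes taken singly, 7.12% at 90 ppm and 13.5% at 200 ppm had all 5 rats below all at 5 ppm. At 200 ppm 36.3% of all genes were called and 31.6% were called lower. Of the 5 erythroid genes 0 rose and 3 fell there. Alas2, the first enzyme of haem synthesis in red cell precursors, fell by 1.21 ± 0.24 (-1.07 relative to the median of all genes). Ahsp, which stabilizes the alpha chain of haemoglobin, fell by 1.14 ± 0.20 (-1.0). The globin Hbb fell by 0.25 ± 0.06 (-0.11), at 14.53 at 200 ppm against 14.78 at 5 ppm. After 15 days 0 of the 5 passed at 200 ppm. The median RNA integrity number then was 9.3 at 5 ppm, 8.5 at 30 ppm, 8.4 at 90 ppm and 8.2 at 200 ppm. The median gap between 3′ and 5′ controls was 0.44, 0.26, 0.25 and 0.16 in the same order. The part of RNA quality in the 15-day values of Hmox1, Blvrb and the light ferritin probe set was not tested. Biliverdin reductase B is abundant in red cells. The part of erythroid cells and of RNA quality in the 5-day falls of Blvra and Blvrb was not tested. With RNA integrity in the fit, at 200 ppm after 5 days, Blvra fell by 0.41 ± 0.10 (adjusted p = 0.010) and Blvrb was at -0.42 ± 0.18 (0.077). That fit also left out rat 269, which has no integrity number and held the lowest Blvra value at 200 ppm (9.38). Leaving out single rats without this covariate gave Blvra changes from -0.51 to -0.40, so the effect of the covariate itself cannot be read from it.

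Markers of other cell types were read in the rat after 5 days at 200 ppm as well, where 36.3% of all genes were called and 31.6% were called lower. Of 9 alveolar macrophage genes 0 rose and 4 fell, not far above that share: Krt79 by 0.77 (-0.63 relative to the median), the lectin Siglec5 by 0.57 (-0.43), Cd68 by 0.47 (-0.33) and Itgax by 0.45 (-0.30). Of 7 genes of monocytes and interstitial macrophages 1 fell, of 8 genes of dividing cells 1 rose and 3 fell, of 8 lung tissue genes 1 rose, and of 8 genes of B and T lymphocytes 0 passed. After 15 days 0 genes of any of these lists passed at 200 ppm.

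**Figure D4:**
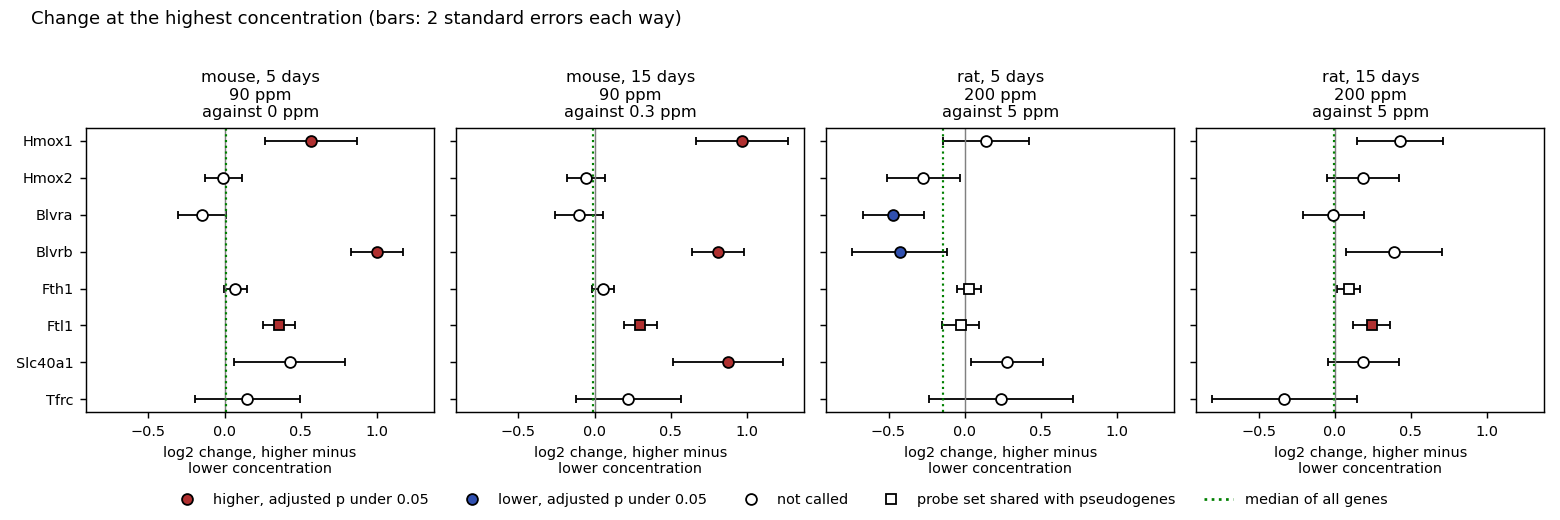
Log2 change of the 8 genes at the highest concentration against the comparison group (horizontal axis) in each species and time, with 2 standard errors each way; the dotted line is the median of all genes. In the mouse Blvrb is at 1.00 and 0.81 and Hmox1 at 0.57 and 0.97, while in the rat Blvra and Blvrb are at -0.47 and -0.43 after 5 days and at -0.01 and 0.39 after 15 days.

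The other genes of haem and iron metabolism were taken from lists and read at the highest concentration only. In the mouse 16.3% of all genes were called after 5 days and 7.97% after 15 days, with 8.99% and 4.68% called higher. The lists of haem synthesis and of iron uptake, export and storage, with 1 or 2 called genes, are not far from these shares. The regulators of Hmox1 transcription, with 2 of 6 called, lie above them in a very short list. Of 11 mouse genes for carriers and scavengers of haem 5 rose and 0 fell after 5 days, and 4 rose and 0 fell after 15 days, with median changes of 0.19 and 0.21. Hpx, the plasma protein that binds free haem, rose by 1.12 ± 0.11 (adjusted p = 5.6e-10) and by 1.24 ± 0.11 (5.4e-11). Cd163, the macrophage receptor for haemoglobin bound to haptoglobin, rose by 1.02 ± 0.23 (adjusted p = 0.0014) and by 0.93 ± 0.23 (0.0074). Abcg2, a transporter that exports porphyrins, rose by 0.36 ± 0.10 (adjusted p = 0.0077) and by 0.57 ± 0.10 (0.00010).

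Of 8 mouse genes of haem synthesis 1 rose and 0 fell at each time. This was Alas1, the rate-limiting enzyme outside red cell precursors, at 13.52 at 90 ppm against 12.84 at 0 ppm after 5 days (0.68 ± 0.11, adjusted p = 2.8e-05) and at 13.62 at 90 ppm against 13.10 at 0.3 ppm after 15 days (0.51 ± 0.11, 0.0021). The list's median changes were 0.19 and 0.05. Of 17 genes of iron uptake, export and storage 1 rose and 1 fell after 5 days, and 0 rose and 1 fell after 15 days. Slc11a2, the divalent metal transporter, rose by 0.23 ± 0.08 (adjusted p = 0.043) and Slc39a8, a zinc and iron importer, fell by 0.51 ± 0.11 (0.00064) after 5 days. Its relative Slc39a14 fell by 0.28 ± 0.09 after 15 days (adjusted p = 0.040).

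Of 10 mouse genes of iron sensing and hormone control 0 passed at either time, with median changes of 0.04 and 0.00. Of 6 regulators of Hmox1 transcription 2 rose and 0 fell at each time. Mafg, a small partner protein of NRF2 and BACH1, rose by 0.57 ± 0.13 (adjusted p = 0.0016) and by 0.49 ± 0.13 (0.013). Keap1, which holds NRF2 in check, rose by 0.37 ± 0.10 after 5 days (adjusted p = 0.0064), and Bach1, the haem-sensitive repressor of Hmox1, rose by 0.44 ± 0.12 after 15 days (0.014).

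In the rat after 5 days at 200 ppm, 31.6% of all genes were called lower and their median change was -0.14. Of 8 genes of haem synthesis 0 rose and 5 fell, with a median change of -0.31: Alas2, which the erythroid list holds too, Fech, which inserts the iron (by 0.58 ± 0.16, adjusted p = 0.0097; -0.44 relative to the median of all genes), and Alad (by 0.47 ± 0.12, 0.0048; -0.33) were among them. Of 9 haem carriers and scavengers 0 rose and 2 fell, with a median of -0.17, a share below and a median close to those of all genes. These were Flvcr2, a membrane transporter, which fell by 0.39 ± 0.11 (adjusted p = 0.0068; -0.25 relative to the median) and Slc46a1, which carries folate and haem and fell by 0.33 ± 0.12 (0.035; -0.19). Of 12 genes of iron uptake, export and storage 2 rose and 4 fell, with a median of -0.13, again close to all genes. The ferroxidases Cp and Heph rose by 0.90 and 0.44 (1.04 and 0.59 relative to the median), and the reductases Steap4 and Cybrd1 and the transporter Slc11a2 fell by 1.06, 0.36 and 0.29 (-0.92, -0.21 and -0.15). Of 8 genes of iron sensing and hormone control 1 rose, the iron hormone hepcidin, Hamp, by 0.32 (0.46 relative to the median), and of 6 regulators of Hmox1 transcription 0 passed. After 15 days at 200 ppm 0 genes of all these lists passed.

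**Figure D5:**
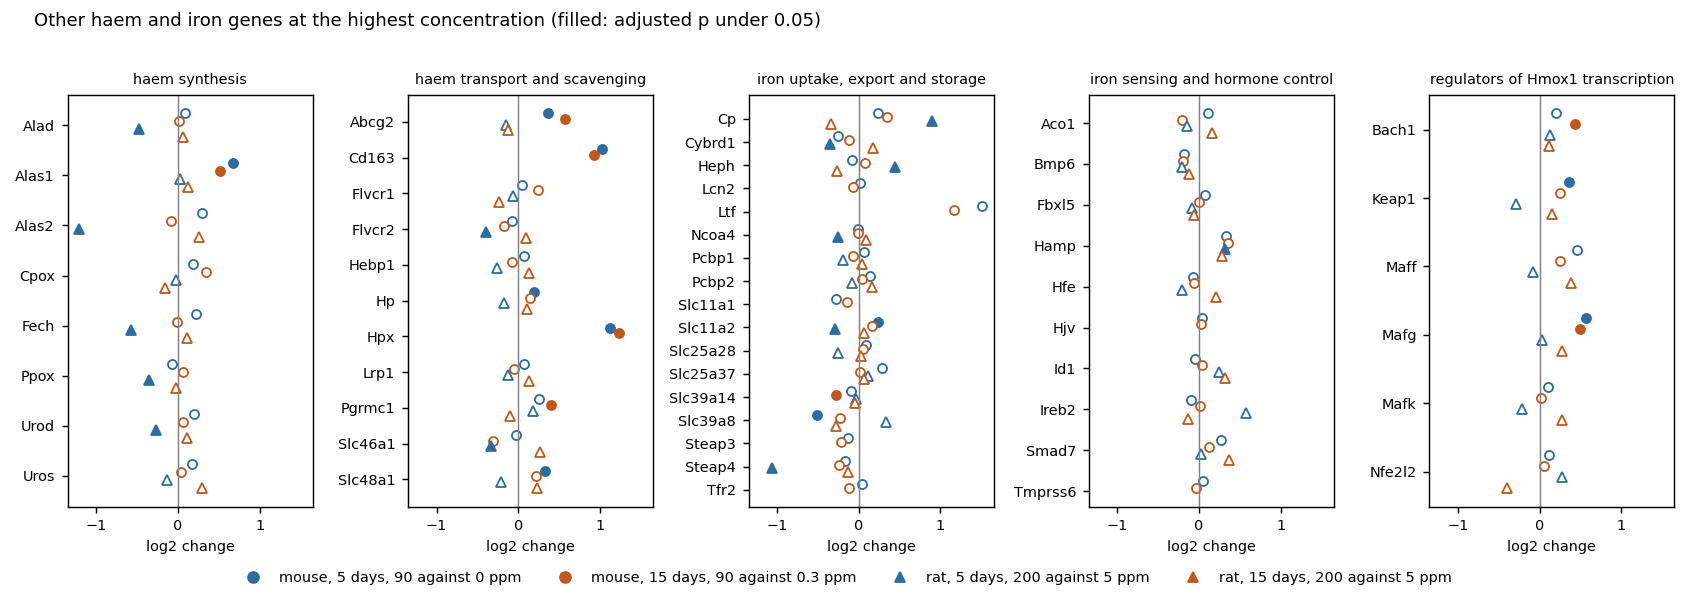
Log2 change at the highest concentration (horizontal axis) of the other haem and iron genes, by list, in the mouse and the rat after 5 and 15 days; filled points passed the test. Hpx, Cd163 and Alas1 lie to the right in the mouse at both times, and Alas2 lies furthest to the left among the rat's haem synthesis genes after 5 days (-1.21).

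The genes whose group means ran most like those of a member were named by Pearson's r over the group means of a species, as a description; the groups share the array type and, within a time, the comparison animals. Over the 9 mouse groups, Blvrb was closest to Aldh3a1, an aldehyde dehydrogenase (r = 0.99), Ltk and Gsta2, a glutathione transferase (0.99 each). Hmox1 was closest to Crybb2, Ces1f, a carboxylesterase, and Btbd11 (0.90 each), and Slc40a1 to Gmnn, Rgs9 and Cradd (0.96 each). Over the 8 rat groups, Blvra was closest to Lrmda, Pvt1 and Ppp1r16a (r = 0.99 each), Blvrb to Mblac1, Bola1 and Cdkn2aipnl (0.99 each), and Hmox2 to Aamp (1.00), Aimp2 and Abhd4 (0.99 each).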

How the data were processed

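Lung RNA of 45 mice and 40 rats had been hybridized to Affymetrix Mouse430_2 and Rat230_2 arrays, extracted with Trizol and RNeasy columns per the labels' protocols. Each deposited value is a probe set's log2 signal; how the authors summarized and normalized them is not given in the sources used here. Probe sets were kept if they exceeded the 40th percentile of the species' values (6.67 for mice, 6.65 for rats) on 5 or more arrays. Of the kept probe sets naming 1 symbol only, the one of highest mean stood for a gene. Animals were grouped by the concentration and exposure days of their titles. R 4.3.3 and limma 3.58.1 fitted group means for each species, without a covariate and with moderated variances (eBayes). The two-sided p-values were adjusted over all genes of a comparison (Benjamini-Hochberg), with a threshold of 0.05. There were 16 comparisons, and 5 more, the steps between neighbouring concentrations and 0.3 ppm between times, were added after seeing the data. A second fit covered the kept probe sets naming 1 symbol and, whatever their signal, the members' shared and control probe sets, 24440 for mice and 15111 for rats. The fit was tested on simulated data. The members and lists were chosen with earlier results of these data known. Named genes were the 8 members, up to 3 genes past the threshold in each direction of each haem or iron list at the highest concentrations, the 3 genes most like each called member, and, of the cell type lists, the marker of highest signal; further markers that passed were named after their values were seen. Alternatives changed the filter, normalization, probe set choice, covariates, arrays in the fit, moderation and reference, or left out animals.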

Additional observations from a re-analysis of the deposited data

Results flagged for a closer look

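Single animals stood apart from the other 4 of their group in 14 of 136 groups of 5 values tested with Dixon's gap ratio, where chance gives about 1 in 20. In the mouse, Hmox1 was 10.96 in mouse 137 at 2 ppm after 5 days (others 9.98 to 10.03), and Tfrc was 10.17 in mouse 165 at 90 ppm after 5 days (others 10.93 to 11.09). Mouse 128, at 0.3 ppm after 15 days, had 10.18 for Blvrb (others 9.89 to 9.96) and 10.31 for Tfrc (others 10.58 to 10.66). Mouse 161, at 13 ppm after 15 days, had 10.33 for Blvra (others 10.55 to 10.63) and 14.85 for Fth1 (others 14.90 to 14.91). Fth1 was 14.83 in mouse 142 at 2 ppm after 15 days (others 14.87 to 14.88). The light ferritin probe set with a mean signal of 13.79 was 13.60 in mouse 118 at 0.3 ppm (others 13.67 to 13.69) and 13.61 in mouse 136 at 2 ppm (others 13.74 to 13.78), both after 5 days.

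In the rat, 3 of these values belonged to rat 239, at 30 ppm after 5 days: Blvrb was 9.32 (others 8.44 to 8.69), Slc40a1 was 9.21 (others 8.68 to 8.79) and Tfrc was 8.68 (others 9.76 to 10.17). Hmox1 was 9.67 in rat 217 at 5 ppm after 5 days (others 9.09 to 9.22). The light ferritin probe set was 13.63 in rat 245 at 30 ppm after 15 days (others 13.51 to 13.54).

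The change from 5 to 200 ppm in the rat differed between the times by limma's test of the difference itself: it was higher after 15 than after 5 days by 0.46 for Blvra (adjusted p = 0.040), 0.81 for Blvrb (0.035) and 0.27 for the light ferritin probe set (0.048 over all probe sets tested, of which 7.21% were called). At 90 against 5 ppm, Blvrb was at 0.35 after 15 days and -0.40 after 5 days, apart by 0.75, and Tfrc was at -0.38 after 15 days and 0.46 after 5 days, apart by -0.84. The difference between the times was not tested at 90 ppm.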

How the results depend on the processing

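No paired analysis was possible because the animals carry individual numbers that no other group shares. The counts of genes passing moved by over 1.5 times as follows, and no cause was tested. At 2 against 0 ppm after 5 days in the mouse the count of 2 became 1 with no filter or quantile normalization, 0 with a covariate for RNA integrity or for the 3′ to 5′ gap of the controls or with 0.3 ppm mice as reference, and ran from 0 to 2 with single mice left out. At 13 against 0 ppm it became 1 with 0.3 ppm mice as reference, and 1 at both 13 and 90 ppm with the integrity number, which only 2 of the 0 ppm mice have. After 15 days, dropping the mice whose duration labels conflict, or those with a letter after their number, gave 0 in place of 1 at 2 ppm and 1 in place of 2 at 13 ppm. In the rat after 5 days the count of 2 at 90 ppm became 1 with no filter or with arrays of the same days, 0 with the integrity number, and 0 to 4 with single rats left out (4 without rat 222). The count of 2 at 200 ppm became 1 with the integrity number, a fit that lacks rat 269, or with arrays of the same days, and 1 to 3 with single rats left out. The 2 calls of the difference between times became 0 with either covariate and 0 to 3 with single rats left out. Counting the shared ferritin probe sets, an alternative added after seeing the data, gave 1 in place of 0 at 200 ppm after 15 days. Changes near 0 that did not pass turned sign: Tfrc at 90 ppm in 15-day mice was -0.047 without the mice of conflicting durations (0.22 with them), Hmox2 at 90 ppm in 5-day mice was 0.013 with 0.3 ppm mice as reference and -0.032 to 0.025 with single mice left out, and Blvra at 200 ppm in 15-day rats was 0.014 after quantile normalization and -0.065 to 0.028 with single rats left out. For the rise of Blvrb at 90 ppm in the mouse at both times and the fall of Blvra at 200 ppm in 5-day rats, every alternative kept the direction and the call.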
